A study of Caenorhabditis elegans with 2 samples.

Results

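Chromatin immunoprecipitation followed by sequencing (ChIP-seq), which recovers the DNA that a protein is crosslinked to, was applied to NHR-90 in whole hermaphrodite L1 larvae of Caenorhabditis elegans. The peaks described here are the weaker peaks of that experiment that lie at autosomal promoters of protein-coding genes on 1 strand. They were chosen by measured values and by position. In the authors' final list, peaks were ranked by signal, those from rank 2067 to the end of the list were kept, and peaks on the X chromosome were left out. The summit, the base of highest enrichment, then had to lie from 1000 bp upstream to 200 bp downstream of annotated 5′ ends of coding genes on 1 strand alone. It could lie in no such window of a tRNA, snRNA or snoRNA gene. The final list held 3256 autosomal peaks and 877 peaks on X. Of all these, 660 (15.97%) met the rule, which is 31.9% of the 2067 peaks in the rank range and 41.3% of the 1598 autosomal ones among them. The other autosomal peaks of that range were 199 between divergent coding genes, 122 at small RNA genes and 617 in no such window. Another 469 peaks of the range were on X.

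The 2 samples were biological replicates 1 and 2 of 1 group, the strain OP483 with the genotype unc-119(tm4063) III; wgIs483, taken 6 h after synchronisation by starvation following bleaching. Both carried a transgene that fuses GFP and FLAG tags to the C-terminus of NHR-90, and anti-GFP antibody was used on chromatin sheared by sonication. No untagged strain is analysed here, so whether signal at a promoter needs the tagged protein was not tested. No read counts were analysed, so the depth and the counting error of the peaks are unknown.

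NHR-90 is a nuclear hormone receptor, a transcription factor with a zinc-finger DNA-binding domain and a ligand-binding domain. Nematodes have many such receptors, most of them related to vertebrate HNF4, and several are known to control fat metabolism and detoxification. Promoters of this animal are hard to place exactly, because most pre-mRNAs are trans-spliced to a short leader and many annotated 5′ ends are splice sites downstream of the true start. A gene that lies downstream in an operon is transcribed from the promoter of the first gene.

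Of the weak promoter peaks, 330 held at least 1 of 5 short sequences that were more frequent at their summits than in flanking DNA, and examples are printed here with the matching letters in capitals. Each is the 61 bp centred on the summit, read 5′ to 3′ on the strand of the gene, in build ce11 and from the reference genome. Where several copies were present, only the copy nearest the summit is in capitals. The first pair holds GAGACGCAG, the site of the zinc-finger protein EOR-1, at ani-1, which encodes an anillin of the contractile ring, and at mask-1, which encodes an ankyrin-repeat protein. The second pair holds the palindromic E-box CACGTG, a site of basic helix-loop-helix factors, at paqr-1, which encodes a homologue of adiponectin receptors, and at R09B5.11. The third pair holds the GC box GGGCGG, a site of Sp1-like zinc-finger factors, at mak-1, which encodes a MAPK-activated protein kinase homologue, and at T26A8.4. The fourth pair holds the repeat GAGAGA at nhr-237, a nuclear receptor gene, and at faxc-1. The last 3 hold TGATAA, a site of GATA factors, which in this animal specify intestine and epidermis. They are at Y51A2D.13, at srz-62, a chemoreceptor family gene, and at gsy-1, which encodes glycogen synthase.
ani-1, chrIII:12453494-12453554, minus strand: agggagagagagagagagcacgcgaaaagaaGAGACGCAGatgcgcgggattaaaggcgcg
mask-1, chrIV:10380845-10380905, plus strand: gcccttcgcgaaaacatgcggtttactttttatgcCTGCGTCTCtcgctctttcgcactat
paqr-1, chrIV:6555632-6555692, minus strand: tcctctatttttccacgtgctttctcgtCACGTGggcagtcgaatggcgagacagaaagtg
R09B5.11, chrV:1438975-1439035, plus strand: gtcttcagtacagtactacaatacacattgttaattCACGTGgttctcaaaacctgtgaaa
mak-1, chrII:8743563-8743623, plus strand: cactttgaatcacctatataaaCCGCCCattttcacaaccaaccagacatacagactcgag
T26A8.4, chrIV:8431743-8431803, minus strand: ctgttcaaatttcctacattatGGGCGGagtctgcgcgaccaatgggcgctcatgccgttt
nhr-237, chrV:1627476-1627536, minus strand: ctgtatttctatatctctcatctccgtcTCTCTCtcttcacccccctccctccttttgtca
faxc-1, chrII:12264094-12264154, plus strand: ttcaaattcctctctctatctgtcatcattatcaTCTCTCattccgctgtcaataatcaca
Y51A2D.13, chrV:18577558-18577618, minus strand: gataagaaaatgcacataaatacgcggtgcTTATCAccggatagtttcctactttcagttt
srz-62, chrIV:3899967-3900027, plus strand: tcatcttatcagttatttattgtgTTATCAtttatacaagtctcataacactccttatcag
gsy-1, chrII:12878808-12878868, minus strand: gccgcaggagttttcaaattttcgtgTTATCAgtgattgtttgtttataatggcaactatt

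The 3 printed TGATAA peaks lay 37 bp, 507 bp and 717 bp upstream of the nearest 5′ end of Y51A2D.13, srz-62 and gsy-1, and their summits were 2.5, 3.5 and 1.5 bp from the centre of the motif. At Y51A2D.13 the signal was 113.4 in the final list, 51.1 in replicate 1 and 62.5 in replicate 2. At srz-62 it was 106.8 in the final list, 62.1 in replicate 1 and 49.5 in replicate 2. These are the authors' own values per peak, given without a stated scale. In both genes the 2 replicates stood close to each other and well below the final list, whose signals come from the pooled reads.

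Signal and rank chose these peaks, so their values are a description and carry no test. Signals ran between 69.4 and 123.5 with a median of 86.8. The 634 peaks ranked better than 2067 that met the same position rule, called strong peaks here, ran between 123.9 and 1699.5 with a median of 198.1. Neither end of the range marks a step. The first peaks inside the upper end were at paqr-1 (123.5), pigt-1 (122.5) and bir-1 (122.4), which encodes a survivin homologue of the chromosomal passenger complex. The one-sided peaks just above them, at tag-325, sqv-8 and rsp-6, had 124.0, 123.9 and 123.9. At the lower end the last peaks inside were at mct-5 (69.5), Y42H9AR.1 (69.4) and vps-33.2 (69.4). The next one-sided peaks among the pooled candidates, at hpo-19, col-42 and aakg-5, had signals of 69.4, 69.4 and 69.4.

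The weak peaks were spread over the 5 autosomes, with 134 on chromosome I, 123 on II, 121 on III, 124 on IV and 158 on V. Their density was between 7.09 per Mb on IV and 8.89 per Mb on I. In width, 642 of the 660 were exactly 400 bp, against 249 of the 634 strong peaks, whose median width was 275 bp. Another final summit was a median of 5506 bp away, against 4439.5 bp for the strong peaks.

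The replicates held the weak peaks less evenly than the strong ones. Each replicate's list of candidate peaks, which by its label includes background, was searched for the strongest candidate that overlapped a peak by at least 1 bp. All 660 weak peaks had a candidate in replicate 1 and 656 had one in replicate 2. The 4 without one, named after their values were seen, were at mtm-9, F38A1.8, brc-1 and arx-3. Each replicate's candidates were cut to as many of the strongest as the final list holds. Among these were 79.4% of the weak peaks in replicate 1 and 73.5% in replicate 2. In both replicates at once it was 371 peaks, or 56.2% (95% exact binomial interval 52.3% to 60.04%), against 99.7% of the strong peaks. A further 267 weak peaks (40.5%) reached that rank in 1 replicate alone and 22 (3.33%) in neither. Matched by the nearest candidate summit within 200 bp instead, 341 weak peaks (51.7%) reached it in both replicates, against 99.4% of the strong peaks. Since the final list was made from both replicates, these shares describe the peaks and test nothing.

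**Figure D1:**
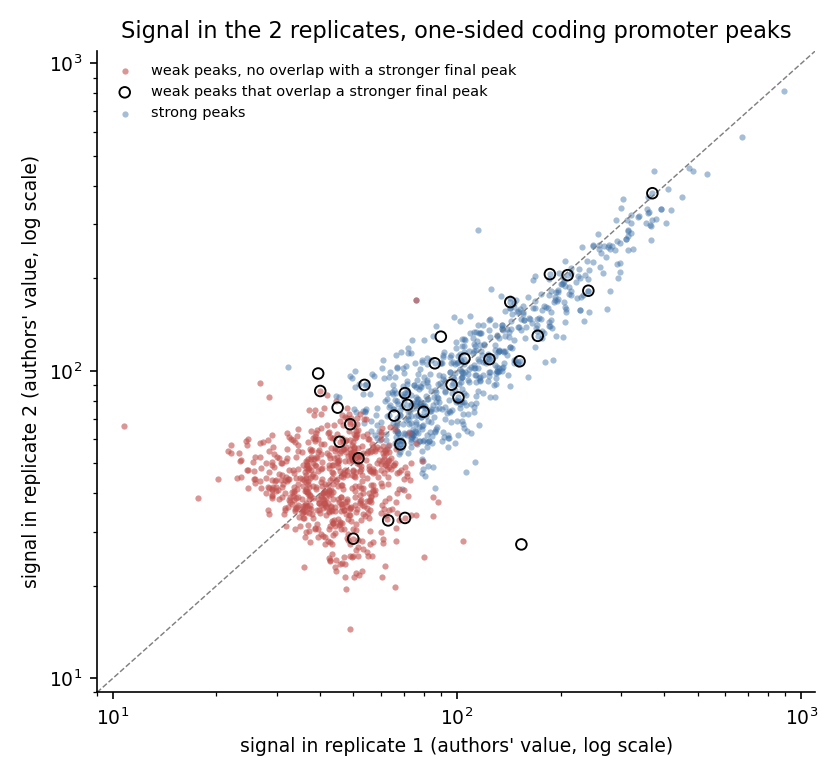
Signal of the strongest overlapping candidate in replicate 1 (horizontal, log scale) and replicate 2 (vertical, log scale) for the weak peaks, in red or ringed in black where they overlap a stronger final peak, and for the strong peaks, in blue. The weak peaks form a round cloud with medians of 44.97 in replicate 1 and 44.6 in replicate 2, while the strong peaks follow the dashed line of equal signal.

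Within the weak peaks, signal in 1 replicate did not order signal in the other. The median signal was 44.97 in replicate 1 and 44.6 in replicate 2, against 103.7 and 100.005 for the strong peaks. Spearman's rho between the replicates was 0.04 over 656 weak peaks and 0.82 over 633 strong peaks. Over the 627 weak peaks that overlapped no stronger final peak it was -0.026. Matched by nearest summit it was -0.026 over 652 weak peaks and 0.80 over 633 strong peaks. This is a description over peaks of the same 2 libraries, and the weak peaks were selected within a narrow range of the pooled signal. The ratio of replicate 1 to replicate 2 had a median of 1.00 with quartiles of 0.77 and 1.32. In 58 of 656 peaks 1 replicate had more than 2 times the signal of the other.

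Wide gaps between the replicates went in both directions. The examples given are not the only ones, and they were named after their values were seen. Y48G8AL.13 had a signal of 10.8 in replicate 1 and 66.2 in replicate 2. At mak-1, whose GC box is printed above, the upstream peak had 26.7 in replicate 1 and 91.3 in replicate 2. At rsu-1, which encodes a homologue of the Ras suppressor of integrin adhesions, the values were 28.3 in replicate 1 and 82.2 in replicate 2. In the other direction, gst-7, a glutathione S-transferase gene, had 66.1 in replicate 1 and 19.9 in replicate 2. These 4 peaks overlapped no stronger final peak.

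The candidate summits of each replicate were compared with the summit in the final list. The nearest was a median of 17 bp away in replicate 1 (upper quartile 36 bp) and 11 bp in replicate 2 (upper quartile 31 bp), against 7 bp and 6 bp for the strong peaks. It was within 50 bp for 84.8% of weak peaks in replicate 1 and 87.3% in replicate 2, against 95.9% and 96.1% of the strong peaks.

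A small set of weak peaks stood beside a stronger one. Of the 660, 29 (4.39%) overlapped a stronger final peak, against 11 of 634 (1.74%) of the strong peaks. Their nearest final summit was between 199 and 300 bp away with a median of 203 bp, about the reach of a 400 bp peak to either side. The 12 weak peaks that ranked best in their worse replicate all belonged to this set. They were at mog-4, pbrm-1, T28F4.5, ppm-2, Y111B2A.12, ZK829.7, F56H9.2, W03H9.2, T21D12.7, pck-2, ahcy-1 and dnj-20. At mog-4, which encodes a DEAH-box helicase of germline sex determination, the final list gave 103.7, while the overlapping candidates had 369.4 in replicate 1 and 378.4 in replicate 2, and the strongest final peak of the gene had 720.9. For this set the strongest overlapping candidate can be that of the neighbouring summit, so its replicate values are not read as those of the weak peak. Among the 631 weak peaks that overlapped no stronger peak, 4 (0.63%) ranked above 2067 in both replicates.

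Matched by nearest summit instead, the weak peaks that ranked best in both replicates and overlapped no stronger peak were at lsm-6, F19B2.5 and chk-1, the last 2 named after their values were seen. The lsm-6 gene encodes a subunit of the Lsm ring of RNA decay and splicing, and its peak had 66.0 in replicate 1 and 64.7 in replicate 2. The peak at chk-1, which encodes the DNA damage checkpoint kinase, had 63.7 in replicate 1 and 65.8 in replicate 2.

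The summits lay close to gene starts, as the rule requires, but differently from those of the strong peaks within the same window. The median summit was 198.5 bp upstream of the nearest 5′ end, with quartiles at 448 and 81.75 bp upstream, against 236.5 bp for the strong peaks. Within 200 bp upstream were 37.6% of the weak and 36.4% of the strong peaks, and more than 500 bp upstream were 22.9% and 19.4%. Downstream of the 5′ end were 84 weak peaks, or 12.7% (10.3% to 15.5%), against 31 strong peaks, or 4.89%. The intervals are exact 95% binomial intervals over peaks, which are not biological replicates.

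**Figure D2:**
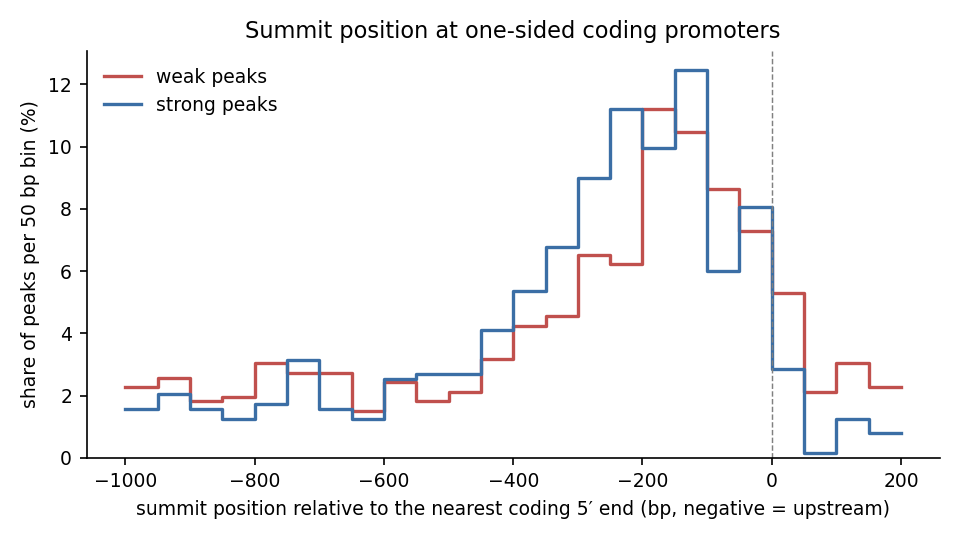
Share of peaks (vertical, %) per 50 bp of summit position relative to the nearest coding 5′ end (horizontal, bp, negative upstream) for the weak peaks, in red, and the strong peaks, in blue. Both sets are densest within 450 bp upstream, and the weak peaks hold more summits downstream of the 5′ end, 12.7% against 4.89%.

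By annotation, 63.03% of the weak summits were intergenic, against 72.9% of the strong ones. Introns held 18.2% of the weak and 15.6% of the strong summits, and untranslated exons 9.24% and 5.68%. Coding exons held 46 weak summits, or 6.97% (5.15% to 9.19%), against 14 strong ones, or 2.21%. The nearest upstream coding gene was on the same strand at 65.2% of the weak and 63.9% of the strong peaks. The rule leaves out summits between close divergent genes, which favours such neighbours in both sets. The gap to that neighbour had a median of 1414 bp at the weak and 1314 bp at the strong peaks. Neighbours on the same strand can belong to 1 operon, which was not tested here.

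Sequence was not used by the rule, so it could be tested. The 23 motifs, however, were chosen with earlier results of these data known. Their p-values are therefore not those of an independent test. For each of 23 short motifs, the share of weak peaks with the motif on either strand within 50 bp of the summit was compared with that in an equally wide window centred 300 bp further upstream of the same gene. Exact two-sided McNemar tests with Benjamini-Hochberg adjustment over the motifs called 10 of 23 (43.5%), of which 5 were more and 5 less frequent at the summits. Across all 2080 six-letter words, reverse complements merged, the same test called 310 (14.9%), 172 more and 138 less frequent. The p-values measure spread over sites of the genome and not between animals.

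GA-rich sequences were the most common of the enriched motifs. The repeat GAGAGA was at 159 of 660 weak summits, or 24.1% (20.9% to 27.5%), against 7.27% of upstream windows (adjusted exact McNemar p = 3.7e-16) and 7.08% of the promoters of all 17242 autosomal coding genes, taken as an equally wide window centred 200 bp upstream of the 5′ end. The EOR-1 site GAGACGCAG was at 64 summits, or 9.70%, against 0.76% of upstream windows (adjusted exact McNemar p = 1.3e-13) and 1.00% of all promoters. EOR-1 is a homologue of the human protein PLZF that acts with Ras signalling and chromatin remodelling. The words CGTCTC and ACGCAG, which are parts of that site, were at 17.3% and 14.5% of summits, against 2.88% and 2.42% of upstream windows. Of the 64 weak peaks with the EOR-1 site, 30 also held GAGAGA.

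The E-box CACGTG was at 50 weak summits, or 7.58%, against 1.36% of upstream windows (adjusted exact McNemar p = 2.4e-07) and 1.54% of all promoters. The 2 other E-boxes tested were not called, with CAGCTG at 2.12% against 1.67% and CATATG at 1.52% against 1.82%. The GC box GGGCGG was at 36 summits, or 5.45%, against 1.36% (adjusted exact McNemar p = 0.00022). Its call was lost when peaks were ranked by replicate 1 alone, where the shares were 4.26% against 2.50%, and with windows of 25 bp to each side, where they were 2.27% against 0.76%.

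The GATA site TGATAA was at 105 weak summits, or 15.9% (13.2% to 18.9%), against 9.24% of upstream windows (adjusted exact McNemar p = 0.00088) and 10.99% of all promoters. With a promoter window of 500 bp upstream to 100 bp downstream this call was just missed (adjusted exact McNemar p = 0.052). The words CTTATC and CTGATA, which overlap that site in sequence, were at 13.0% and 8.79% of summits, against 3.94% and 3.48% of upstream windows.

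Half-sites of nuclear receptors, the kind of sequence that many receptors of this class recognise, were not called. AGGTCA was at 31 weak summits, or 4.70% (3.21% to 6.60%), against 2.88% of upstream windows (adjusted exact McNemar p = 0.23) and 2.67% of all promoters. It was called when the comparison window lay 300 bp downstream (2.12%) or 500 bp upstream (1.21%). AAGTCA was at 4.85% of summits, against 5.30% of upstream windows. The site that NHR-90 itself prefers was not searched, as no file used here gives it.

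The 5 motifs that were less frequent at the weak summits than upstream were all rich in A and T. The T block TTTTTT was at 29.5% of summits, against 45.8% of upstream windows. TTTGAA was at 16.5% against 31.8%, the splice acceptor TTTTCAG at 3.18% against 10%, the TATA box TATAAA at 6.67% against 11.8% and the homeodomain site TAATTA at 2.42% against 5.91%. Base composition moved the same way, with a median GC content of 41.6% at weak summits and 33.7% in the upstream windows. Its part in these differences was not tested.

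**Figure D3:**
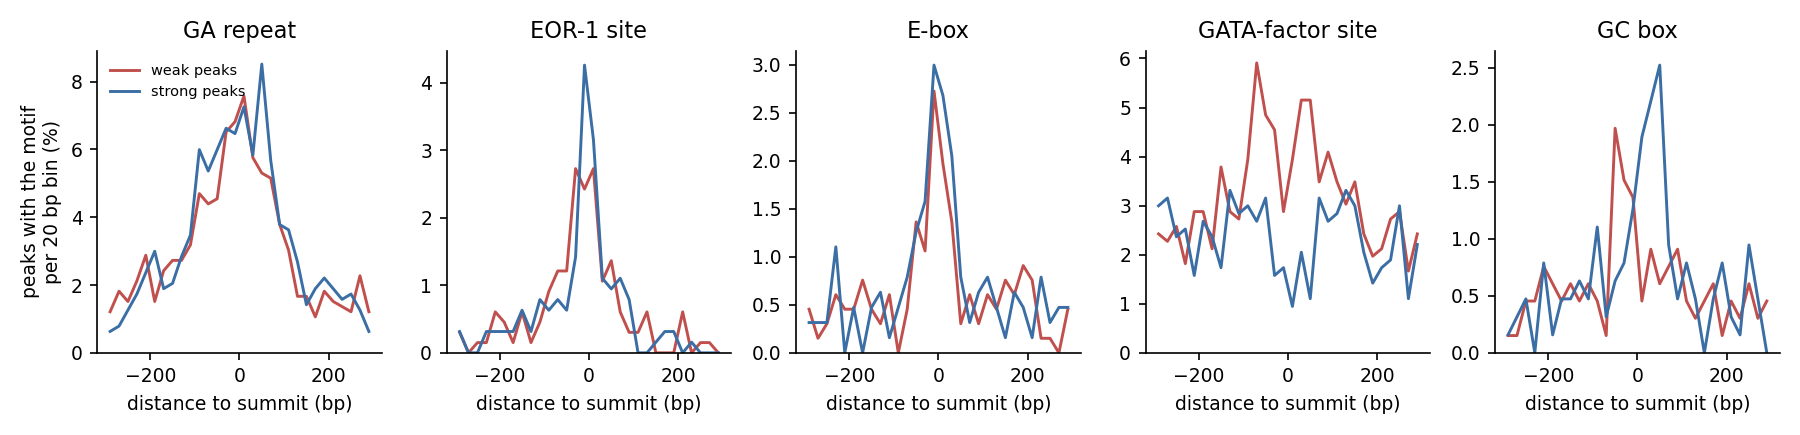
Share of peaks (vertical, %) with each of 5 motifs in 20 bp bins of distance from the summit (horizontal, bp, negative upstream on the strand of the gene), for the weak peaks, in red, and the strong peaks, in blue. The first 3 motifs crowd at the summit in both sets, whereas the GATA-factor site stands on both sides of the weak summits, with 5.91% of peaks in the bin at 70 bp upstream and 2.88% in the bin at 10 bp upstream.

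The motifs differed in how tightly they sat at the summit. In weak peaks that held it within 50 bp, the nearest E-box was a median of 17 bp from the summit, GAGAGA 18.5 bp, the EOR-1 site 19 bp, the GATA site 23.5 bp and the GC box 26 bp. The EOR-1 site was within 20 bp of the summit in 53.1% of the weak peaks that held it, against 76.6% of such strong peaks. GAGAGA was on the strand of the gene in 36.7% of its 275 occurrences at weak summits, against 34.04% of 376 at strong summits. Its complement TCTCTC was thus the more common reading in both. Overlapping copies counted separately, and the occurrences came from 159 weak and 144 strong peaks, so long repeats weigh more in these shares. The GATA site was on the strand of the gene in 45.3% of 137 occurrences.

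Weak and strong summits were compared for the same motifs. Two-sided Fisher's exact tests of the 23 motifs, with Benjamini-Hochberg adjustment, called 3 of 23 (13%) as different between weak and strong summits. The GATA site was the largest of these, at 105 of 660 weak summits, or 15.9%, against 46 of 634 strong summits, or 7.26% (5.36% to 9.56%; adjusted Fisher's exact p = 2.4e-05). In the upstream windows of the strong peaks it was at 11.5%. This call held under all 8 of the settings tried for it. TTTTTT was at 29.5% of weak and 22.2% of strong summits (adjusted Fisher's exact p = 0.022). TTTGAA was at 16.5% of weak and 23.7% of strong summits (adjusted Fisher's exact p = 0.016). The TTTTTT call was lost under 4 of the 8 settings, among them ranks from either replicate alone, and the TTTGAA call under 5, among them ranks from replicate 2 alone.

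For the other 4 enriched motifs the test between weak and strong peaks was not passed, which does not show that their shares are equal. GAGAGA was at 24.1% of weak and 22.7% of strong summits, a difference of 1.38 percentage points. The EOR-1 site was at 9.70% and 10.1%, the E-box at 7.58% and 9.94% and the GC box at 5.45% and 7.26%. At least 1 of the 5 motifs was at 330 of 660 weak summits (46.1% to 53.9%), at 42.7% of strong summits (38.9% to 46.7%) and at 18.8% of the upstream windows of the weak peaks. The 5 were picked by their excess at these same weak summits over these upstream windows. That excess was thus fixed by the choice, which also favours weak over strong summits, and these shares test nothing.

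Over all six-letter words, 76 of 2080 (3.65%) differed between weak and strong summits, 18 more and 58 less frequent at the weak ones. The count at an unadjusted p under 0.05 was 307. The words more frequent at weak summits included CTTATC, at 13.0% against 4.89% (adjusted Fisher's exact p = 6.9e-05), and CTGATA, at 8.79% against 2.52% (adjusted Fisher's exact p = 0.00014). Those less frequent at weak summits were led by AACGCG, at 4.70% against 16.4% (adjusted Fisher's exact p = 5.8e-09), and GCGCCA, at 3.79% against 14.5% (adjusted Fisher's exact p = 7.2e-09).

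Base composition differed between the sets too, with a median GC content of 41.6% at weak and 46.5% at strong summits. Weak and strong peaks together were therefore split at a GC content of 44.6%. In the lower part the GATA site was at 99 of 452 weak summits, or 21.9% (18.2% to 26%), against 34 of 265 strong summits, or 12.8% (9.05% to 17.5%). In the upper part it was at 2.88% of weak and 3.25% of strong summits. TTTTTT was at 36.7% of weak and 33.96% of strong summits in the lower part and at 13.9% and 13.8% in the upper part. TTTGAA was lower at the weak summits in both parts, at 20.8% against 30.9% and at 7.21% against 18.4%. In the upper part GAGAGA was at 35.6% of weak summits (29.1% to 42.5%), against 25.2% of strong summits (20.9% to 29.96%), while in the lower part it was at 18.8% against 19.2%. The EOR-1 site was at 16.3% of weak and 10.8% of strong summits in the upper part, and at 6.64% and 9.06% in the lower part. No test was made within the parts.

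**Figure D4:**
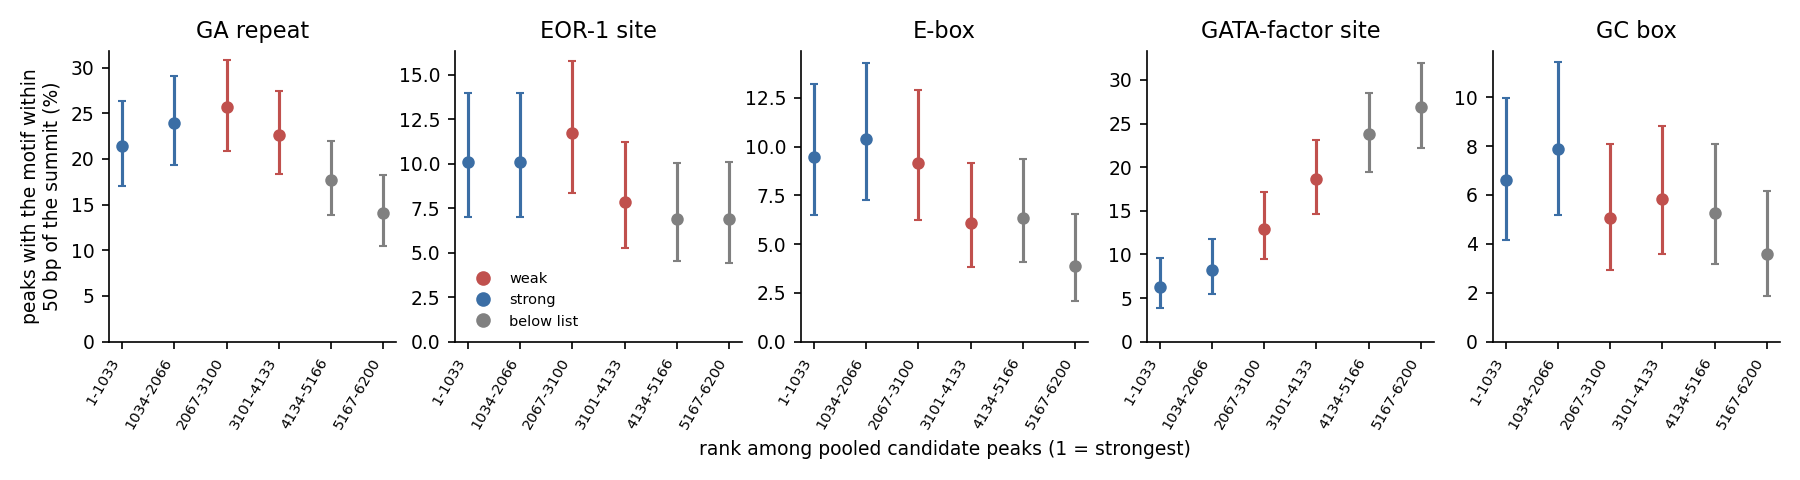
Share of autosomal one-sided coding promoter peaks (vertical, %, with exact 95% binomial intervals) that hold each of 5 motifs within 50 bp of the summit, by rank among the pooled candidate peaks (horizontal, 1 = strongest). Blue marks the strong peaks, red the weak ones and grey the candidates below the final list. The GATA-factor site climbs with falling signal, from 6.31% in the first bin to 26.9% in the last.

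Followed along the ranks, the GATA site became more frequent as signal fell. It was at 6.31% of one-sided peaks of ranks 1 to 1033, at 8.20% of the next bin, which ends before rank 2067, at 13.0% of ranks 2067 to 3100 and at 18.6% of those from rank 3101 to the end of the list. Among pooled candidates below the final list it was at 23.8% of ranks 4134 to 5166 and at 26.9% of ranks 5167 to 6200. The median GC content over the same 6 bins was 47.5%, 45.5%, 42.6%, 40.6%, 38.6% and 38.6%. GAGAGA was at 25.6% and 22.7% in the 2 bins of weak peaks and at 17.7% and 14.03% in the 2 bins below the list. The E-box was at 9.18% and 6.10% of the weak bins and at 6.35% and 3.88% below. No test was made along the ranks.

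The weak peaks covered 653 of 17242 autosomal coding genes (3.79%), where a gene counts if a summit lies in its window. Of the 660 peaks, 646 had 1 such gene and 14 had 2. For 597 genes the strongest final peak was a weak one, and 77 of the 660 peaks (11.7%) were at a gene that also had a stronger final peak. Neither nhr-90 itself nor unc-119, the marker gene of the strain, had a final peak in its window. Of all autosomal coding genes, 3.67% had a strong peak in their window and 2532 (14.7%) had any final peak. Gene lists were defined by symbol patterns, and each is given by its count beside these backgrounds, with no test.

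**Figure D5:**
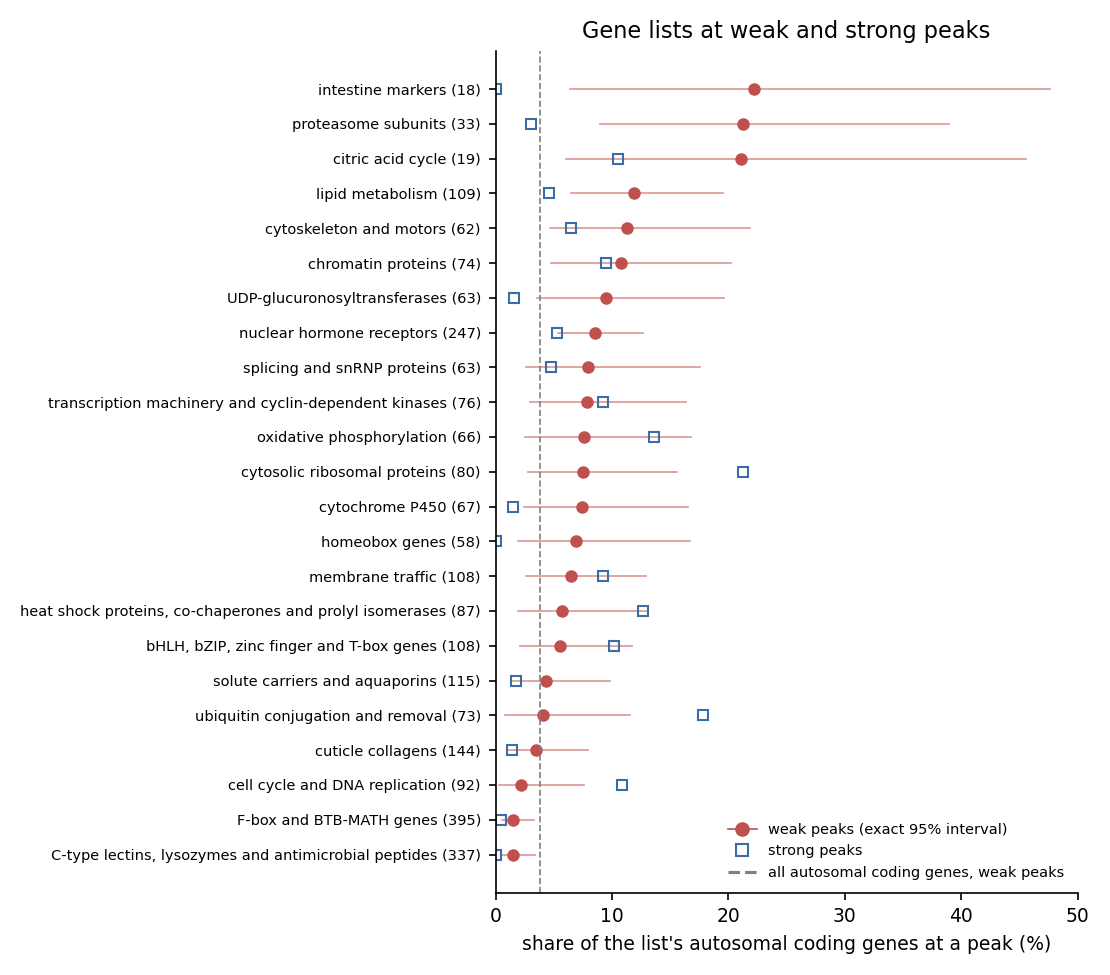
Share of the autosomal coding genes of each list (horizontal, %, list size in parentheses) that have a weak peak, as red dots with exact 95% binomial intervals, or a strong peak, as open blue squares, for 23 lists with at least 4 genes at weak or 10 at strong peaks. The dashed line is the share of all autosomal coding genes at weak peaks, 3.79%. Lists were drawn partly by their count at weak peaks, which favours a place to the right of the line. Most of the lists drawn lie there, with the intestine marker, proteasome and citric acid cycle lists the farthest. The cytosolic ribosomal protein list has its square, 21.2%, to the right of its dot, 7.50%.

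Nuclear hormone receptor genes had a weak peak at 21 of 247 (8.50%; 5.34% to 12.7%), against 13 of 247 (5.26%) with a strong one. Any final peak was at 39 of 247 (15.8%), near the 14.7% of all autosomal coding genes. The 4 of highest signal were nhr-104 (118.8), nhr-237 (117.9), nhr-131 (114.7) and nhr-49 (112.6). NHR-49 controls fatty acid desaturation and breakdown and is likened to vertebrate PPAR-alpha in function. The nhr-104 peak had 60.8 in replicate 1 and 57.04 in replicate 2, and the nhr-49 peak 50.2 and 54.7. The nhr-49 gene also had a stronger final peak, of 175.5. Of the 21 receptor peaks, 11 held GAGAGA and 3 each held the EOR-1 and GATA sites, which over all weak peaks were at 24.1%, 9.70% and 15.9%.

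Of the homeobox genes, 4 of 58 (6.90%; 1.91% to 16.7%) had a weak peak and 0 of 58 a strong one. With a window of 500 bp upstream to 100 bp downstream the count was 1 instead of 4. Any final peak was at 5 of 58 (8.62%), against 14.7% of all autosomal coding genes. The 4 were ceh-20 (111.7), a PBC-class cofactor, and the Hox genes ceh-13 (82.0), lin-39 (79.3) and mab-5 (73.6), which pattern the body axis. All are on chromosome III. The lin-39 and mab-5 genes are named after their values were seen. The lin-39 peak had 43.96 in replicate 1 and 32.9 in replicate 2, and the ceh-13 peak 29.4 and 53.7. Both stood nearer to the weak end of the range than ceh-20, with 51.6 and 56.1.

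Among other transcription factor families, 6 of 108 genes (5.56%) had a weak peak, against 11 of 108 with a strong one. They included ets-6 (116.6), an ETS factor gene, the zinc-finger genes ztf-27 (103.99) and ztf-3 (91.4), and sptf-3 (73.0), which encodes an Sp1-like factor. In this group 5 of 6 peaks held GAGAGA, against 24.1% of all weak peaks, and no test was made. Chromatin proteins had weak peaks at 8 of 74 genes (10.8%), against 7 of 74 with strong ones. They included lin-52 (110.9) of the DREAM complex, cbp-1 (104.1), the p300 and CBP acetyltransferase, and swsn-1 (101.8) and swsn-7 (99.9) of the SWI/SNF remodeller. The cbp-1 gene had a stronger final peak as well, of 692.7. Of the general machinery, 6 of 76 genes had one, among them rpoa-12 (121.7), ama-1 (110.3), the large subunit of RNA polymerase II, cdk-12 (99.7), which phosphorylates that subunit's tail, and ttb-1 (97.4), the TFIIB homologue.

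Genes of lipid metabolism had a weak peak at 13 of 109 (11.9%; 6.51% to 19.5%), against 5 of 109 (4.59%) with a strong one. The 4 of highest signal were ech-1.2 (119.4) and ech-6 (113.2), both enzymes of the enoyl-CoA hydratase family of fatty acid oxidation, lbp-9 (112.1), a fatty acid binding protein, and far-7 (101.2), a fatty acid and retinol binding protein. The ech-1.2 peak had 41.1 in replicate 1 and 75.8 in replicate 2, while ech-6 had 71.5 and 46.5. The lbp-9 peak was more even, with 55.5 in replicate 1 and 60.2 in replicate 2. The other 9 ran from 69.6 to 88.6. The GATA site was in 2 of the 13 peaks (15.9% of all weak peaks).

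The genes pmt-1 and pmt-2, whose enzymes carry out the methylation in phosphocholine synthesis, both had a weak peak and are named after their values were seen. The peak at pmt-1 (103.3), which methylates phosphoethanolamine, had 50.2 in replicate 1 and 55.9 in replicate 2 and held both an E-box and a GATA site. A weak peak at pmt-2 (102.7), which completes the methylation, had 51.7 in replicate 1 and 52.0 in replicate 2.

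Detoxification genes were more often at weak than at strong peaks by count. UDP-glucuronosyltransferases, which attach sugar acids to lipophilic compounds, had weak peaks at 6 of 63 (9.52%; 3.58% to 19.6%), against 1 of 63 with strong ones. They included ugt-13 (99.6), ugt-62 (99.0), ugt-64 (91.4) and ugt-61 (83.2), and 3 of the 6 peaks held the GATA site (15.9% of all weak peaks). Cytochrome P450 genes had weak peaks at 5 of 67 (7.46%), against 1 of 67, with cyp-37B1 (102.8) and cyp-13A5 (90.5) the highest, followed by cyp-33A1 (83.0) and cyp-34A8 (79.2). Glutathione S-transferases had 3 of 46, among them gst-5 (111.2) and gst-33 (107.3). Any final peak was at 14.3%, 11.9% and 13.0% of these families, in that order, against 14.7% of all autosomal coding genes. Many of these genes belong to families of near copies, and how reads that match several copies were handled is not given in the sources used here.

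Housekeeping lists split between the weak and the strong peaks, and many of their genes had a final peak in neither of these sets. Proteasome subunits had weak peaks at 7 of 33 genes (21.2%; 8.98% to 38.9%), against 1 of 33 (3.03%) with a strong one-sided peak. Counting every final peak in a window, 23 of 33 had one, against 14.7% of all autosomal coding genes. The highest were pas-1 (121.7), pbs-3 (121.2) and pbs-4 (91.1) of the core particle and rpt-6 (117.8), an ATPase of the regulatory particle. The rpt-6 peak had 47.98 in replicate 1 and 70.5 in replicate 2, and the pbs-3 peak 62.8 and 50.98. The pas-1 peak lies upstream of rpoa-12 as well, so 1 peak counts for both genes. None of the 7 held GAGAGA, the EOR-1 site, the E-box or the GATA site, and 1, at pbs-3, held the GC box. Over all weak peaks these shares were 24.1%, 9.70%, 7.58%, 15.9% and 5.45%. With a promoter window of 500 bp upstream to 100 bp downstream 4 proteasome genes had a weak peak instead of 7.

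Cytosolic ribosomal proteins showed the other order, with 6 of 80 genes (7.50%) at weak peaks and 17 of 80 (21.2%) at strong ones. Most of the list lay outside both one-sided sets, as 65 of 80 genes (81.25%) had any final peak. The highest weak ones were rps-8 (108.6), rps-5 (99.8), rpl-19 (88.5) and rps-25 (82.5). Ubiquitin conjugation genes had 3 of 73 at weak and 13 of 73 at strong peaks, with ubl-5 (113.0) and uba-1 (91.6), the ubiquitin-activating enzyme, the highest. Of that list, 24 of 73 had any final peak. Cell cycle and replication genes had 2 of 92 at weak peaks, mcm-5 (91.4) and cdt-1 (73.1), and 10 of 92 at strong ones. Any final peak was at 42 of 92. The weak count was 4 with the narrower window and 1 with a window of 2000 bp upstream to 200 bp downstream. Chaperones and prolyl isomerases had 5 of 87 and 11 of 87, while 40 of 87 had any final peak. Their weak peaks included dnj-10 (114.4), fkb-2 (99.4) and one in the window of hsp-60 (111.6), which also had a final peak of 874.3.

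Energy metabolism was present on both sides. Citric acid cycle enzymes had weak peaks at 4 of 19 genes, against 2 of 19 with strong ones, with fum-1 (117.4), the fumarase, and dlst-1 (99.1), the succinyltransferase of the oxoglutarate dehydrogenase complex, the highest. The fum-1 peak had 61.6 in replicate 1 and 53.1 in replicate 2. Oxidative phosphorylation genes had 5 of 66, against 9 of 66, with atp-4 (112.3), ndua-5 (109.9), ndua-7 (104.5) and cyc-2.1 (101.8), a cytochrome c, the highest. With the wider window 3 instead of 5 had one. Glycolysis had 2 of 16 on either side, aldo-2 (73.1) and pyk-1 (72.1) at weak peaks, but 1 with either other window. Splicing proteins had 5 of 63, against 3 of 63, with lsm-6 (109.0), lsm-3 (93.1), hrpf-1 (82.9) and rsp-8 (79.9) the highest. Membrane traffic had 7 of 108, against 10 of 108, with vps-39 (92.7), copb-2 (88.1), copd-1 (79.8) and copg-1 (77.8), the last 3 coatomer subunits. Any final peak was at 10 of 19 citric acid cycle, 36 of 66 oxidative phosphorylation and 5 of 16 glycolysis genes. It was at 34 of 63 splicing and 39 of 108 membrane traffic genes, against 14.7% of all autosomal coding genes.

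Whole larvae hold all tissues, so a peak cannot be assigned to a cell type from these files. Of the tissue marker lists, intestine markers had weak peaks at 4 of 18 genes (22.2%; 6.41% to 47.6%), against 0 of 18 with strong ones. They were act-5 (94.0), the actin of the intestinal brush border, asp-1 (82.5), an intestinal aspartic protease, erm-1 (81.6), the ezrin homologue that links actin to the membrane, and ifo-1 (75.5), which organises intestinal intermediate filaments. The erm-1 and ifo-1 genes are named after their values were seen. The act-5 peak, with 56.3 in replicate 1 and 39.2 in replicate 2, was the only one of the 4 with a GATA site. Hypodermis markers had 1 of 24 (vab-10, 81.6; 0 with the narrower and 2 with the wider window), body wall muscle markers 1 of 20 (pat-4, 99.9) and neuron markers 2 of 36 (unc-76, 77.6, and unc-33, 70.1). Pharynx markers had 0 of 23, which allows a share of up to 14.8% by the exact interval, and germline markers 0 of 57, which allows up to 6.27%. Strong peaks were at 2 of 24 hypodermis, 2 of 20 body wall muscle, 3 of 36 neuron, 0 of 23 pharynx and 2 of 57 germline markers. Any final peak was at 22.2% of intestine, 19.4% of neuron, 15% of body wall muscle and 12.5% of hypodermis markers. For germline markers it was 7.02% and for pharynx markers 0%, against 14.7% of all autosomal coding genes. Cytoskeleton and motor genes had 7 of 62, against 4 of 62, including lis-1 (115.2), dyci-1 (103.98) and nud-1 (91.1) of the dynein pathway.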

How the data were processed

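ChIP-seq of GFP-tagged NHR-90 was deposited by the authors as peak lists in narrowPeak layout, with candidate peaks and background for each replicate and for the pool, derived with a control, and a final list thresholded by irreproducible discovery rate, per the labels and the listings deposited with them. The signal per peak is deposited by the authors without a stated scale. The deposited −log10 q-values had 1 value throughout the final list and were not used. Which aligner and which caller made them is not given in the sources used here. Without read counts the depth is unknown, and how candidates were called limits what counts as weak.

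Only ce11 lists were used, with Ensembl release 115 (WBcel235, the same assembly). Summits are the deposited start plus the deposited offset, 1-based. Exact tests were made in Python 3.11.15 with scipy 1.17.1, numpy 2.4.6 and pandas 2.3.3, and figures in matplotlib 3.10.9. The threshold was an adjusted p of 0.05. Motif tests were checked on simulated data. Peaks are not biological replicates, and replicates enter through their candidate lists, matched by an overlap of at least 1 bp.

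Members, the 44 gene lists and the motifs were chosen with earlier results of these data known. The list patterns were corrected after their values were seen, to drop genes caught by shared letters, and the test of six-letter words between weak and strong peaks was added then. Named genes are those of the 12 peaks best in their worse replicate, the 3 nearest each end of the rank range, the 4 of highest signal in lists with at least 5 genes at weak peaks or 2 in other lists, nhr-90, unc-119 and those with printed sequence. Others are marked as named after their values were seen. Alternatives were other promoter windows, motif windows and comparison windows, ranks from 1 replicate alone, nearest summits, and leaving out peaks near another or overlapping a stronger one.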

Additional observations from a re-analysis of the deposited data

How the results depend on the processing

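The number of weak peaks was between 555 and 721 over 4 alternatives. The 10 motifs called at summits against upstream windows were between 7 and 14 in the 10 settings tried. With ranks from 1 replicate alone, motifs called between weak and strong peaks ranged from 1 to 3 and six-letter words from 72 to 116, against 3 and 76 as reported. With windows of 25 bp to each side, which hold fewer bases, 190 words instead of 310 were called at summits. Causes of the other shifts were not tested. Of 88 gene list counts under 2 other promoter windows, 25 moved by over 1.5 times. Besides lists given with these windows above, the vacuolar ATPase list had 0 genes with the narrower and 4 with the wider window. With ranks from replicate 1 alone, the TATAAA and TAATTA calls at summits were lost and TATAAA was called between weak and strong peaks (9.40% against 4.80%). No paired analysis was possible because both samples belong to 1 group. Directions turned only where neither value passed the test. At weak summits against the comparison window, with the narrower promoter window, CAGCTG was at 1.44% against 1.80% and CATATG at 1.62% against 1.26%, and with the wider one CATATG was at 1.66% against 1.39%. With ranks from replicate 2 alone ACTACAA turned, at 1.71% against 2.17%, and CATATG was level, at 1.86% against 1.86%. With ranks from replicate 1 alone CATATG turned, at 1.91% against 1.76%, while ACTACAA did not, at 2.35% against 2.06%. With windows of 100 bp to each side AAGTCA was at 9.70% against 9.09% and ATTTGCAT at 1.82% against 2.27%. With the comparison window 300 bp downstream CAGCTG was at 2.12% against 2.42%, CATATG at 1.52% against 0.91%, AAGTCA at 4.85% against 4.39% and TCATCA at 9.09% against 9.70%. With it 500 bp upstream CAGCTG was at 2.12% against 2.73% and CATATG at 1.52% against 1.21%. Between weak and strong summits, GAGACGCAG was at 10.45% against 9.56% with the narrower promoter window. With ranks from replicate 2 alone GAGAGA was at 22.5% against 22.6%, CAGCTG at 3.42% against 2.08%, TGACTCA at 0.47% against 1.28% and ATTTGCAT at 0.93% against 0.96%. TAATTA did not turn there, at 2.48% against 3.05%. With ranks from replicate 1 alone GAGAGA turned, at 19.97% against 23.1%, and so did TAATTA, at 4.41% against 2.94%. CAGCTG (2.35% against 3.41%), TGACTCA (0.88% against 0.77%) and ATTTGCAT (1.03% against 0.93%) did not turn with that ranking. Without peaks that overlap a stronger one TTTTCAG was at 3.17% against 3.21%. With windows of 25 bp TTTTCAG was at 0.76% against 1.42% and ATTTGCAT at 0.30% against 0.47%, and with 100 bp GAGAGA was at 35% against 35.3% and TATAAA at 17.9% against 18.8%. GTAAACA, not called as reported, was called at summits under 4 settings. Unknown depth limits what can be said of the weakest peaks.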

Other observations

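Several large gene families not described above are given by their counts, beside the 3.79% of all autosomal coding genes at weak peaks. Chemosensory receptor genes had a weak peak at 3 of 1239 (0.24%), among them srz-62 (106.8) and srr-4 (99.6), against 3 of 1239 with a strong one. Of the F-box and BTB-MATH families, 6 of 395 genes had one (1.52%), led by fbxc-29 (94.4), fbxa-24 (79.0), fbxa-202 (78.0) and fbxa-4 (76.3), against 2 of 395. C-type lectins, lysozymes and antimicrobial peptides had 5 of 337 (1.48%), with nlp-24 (97.5), fip-4 (88.6), nlp-27 (74.8) and clec-78 (71.3) the highest, against 0 of 337. Ion channels and transmitter receptors had 3 of 189, among them asic-2 (113.9) and twk-25 (73.9), against 2 of 189. The interval of the ion channel list, 0.33% to 4.57%, holds the share of all genes. With a promoter window of 500 bp upstream to 100 bp downstream the chemosensory count was 1, the F-box and BTB-MATH count 3 and the ion channel count 1. With 2000 bp upstream to 200 bp downstream the chemosensory and ion channel counts were 5 each.

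Cuticle collagens had weak peaks at 5 of 144 (3.47%), against 2 of 144 with strong ones. They were col-147 (120.3), the adjacent col-159 and col-160, which share 1 peak (120.2), col-98 (116.7) and col-103 (96.0), the last named after its values were seen. Solute carriers and aquaporins had 5 of 115 (4.35%), with swt-4 (114.2), zipt-11 (87.6), slc-17.2 (73.6) and aat-7 (71.1) the highest, against 2 of 115. With the wider window the collagen count was 9 and the solute carrier count 8, and with the narrower window the solute carrier count was 3. Autophagy genes had 3 of 27, among them lgg-1 (87.8) and unc-51 (78.5), against 6 of 27, and lgg-1 had a stronger final peak too, of 397.6.

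Of the genes at weak peaks, 21 had more than 1. At paqr-1 the peaks had 123.5 and 114.9, both held the GATA site, and the summits were at positions 6555662 and 6555096 of chromosome IV. The stronger one had 79.3 in replicate 1 and 51.1 in replicate 2, the other 55.2 and 59.99.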
